A study of Mus musculus with 35 samples.

Results

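The Hox genes of the array were read in 3 mouse cell sources, in the iPS clones made from them and in ES cells. Members were all probes whose gene name on the array was Hoxa, Hoxb, Hoxc or Hoxd followed by a number: 49 probes of 38 genes, among 41174 gene probes in all. They comprised 11 Hoxa genes on chromosome 6, 10 Hoxb genes on chromosome 11, 8 Hoxc genes on chromosome 15 and 9 Hoxd genes on chromosome 2. The array values were scaled as the log2 of a probe's signal over the 75th percentile of its own array, so that a level of 0 lies at that percentile, and each gene is represented by its probe with the highest mean level over the 35 arrays.

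Hox genes encode homeodomain transcription factors that mark position along the body axis and along the limb. Within each cluster, genes with low numbers are used in the head and neck region and genes with high numbers toward the tail and the limb tip, and this order matches their order on the chromosome. Adult fibroblasts and mesenchymal cells are known to keep part of the Hox pattern of their site of origin, whereas ES cells hold most Hox promoters under Polycomb repression.

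All source cells came from 6-week-old mice with a Nanog reporter (GFP and puromycin resistance under Nanog control), so every clone carried that reporter too. PaS cells were sorted from the bone marrow as CD45- Ter119- PDGFRa+ Sca-1+ mesenchymal stem cells, OP cells from the same tissue as CD45- Ter119- PDGFRa- Sca-1- osteo progenitors, and TTFs (tail tip fibroblasts) were grown out of minced tail to passage 3. Each source was transduced with retroviruses for Oct3/4, Sox2 and Klf4, with c-Myc (4F) or without it (3F), plus DsRed, and GFP+ DsRed- clones were picked under puromycin on SNL feeder cells: 5 clones for each of the 6 combinations of source and factors, 30 in all. The ES arrays held the lines EB-3 and RF 8, and PaS, OP and TTF had 1 array each, so the sources carry no replicate error and no test. Each clone was 1 array, so p-values between groups of clones measure the spread between clones.

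The 3 source arrays and EB-3 lay on the same slide and were scanned together. All 30 clones lay on 8 other slides of a second scan session, and RF 8 was scanned alone in another. A difference between clones and sources, or between clones and ES cells, therefore cannot be told apart from the scan session. Between 56.6% and 71.2% of the gene probes were well above background, by the flag of the scanner software, on each array. On 2 source arrays some markers ran against the label, and although the sorted cells were expanded in culture before transduction, whether the arrayed RNA came from fresh or expanded cells is not given in the sources used here. On the OP array, from cells sorted as negative for both, Pdgfra stood at 1.58 and Ly6a, which encodes Sca-1, at 3.54, against 0.98 and 5.58 on the PaS array. The osteoblast genes went with the OP label only in part. There 6 of 6 were well above background, against 5 on PaS and 3 on TTF. Ibsp stood at 3.65, Bglap1 at 4.25 and Sp7 at 0.94, against -7.57 (not above background), -0.99 and -2.43 on PaS. Runx2 and Spp1 were closer, at 1.37 and 7.86 on OP against 0.85 and 7.70 on PaS. The summed signal of the 6 genes was 268 on OP, 210 on PaS and 284 on TTF, where Spp1 stood at 8.15. On the TTF array, 8 of 8 blood cell markers were well above background with a summed signal of 254 times the 75th percentile, against 0.694 on PaS and 0.305 on OP, among them the macrophage genes Emr1 at 6.74 and Cd68 at 6.20. The part of these cells in the TTF Hox levels was not tested, and in such bulk RNA fewer cells of a type and less RNA per cell cannot be told apart. Clones 4F-OP-iPS #1, #2 and #3 and 4F-TTF-iPS #1 had the lowest summed signals of 6 pluripotency genes, 9.74, 1.03, 5.15 and 3.92, together with 4F-TTF-iPS #2 at 9.22, against a median of 26.1 over all clones.

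The source arrays differed in how much of the Hox set they showed. PaS had 41 of the 49 Hox probes well above background, OP 35 and TTF 27, where 64.3%, 63% and 63.8% of all gene probes were. By gene, 35 of the 38 were well above background in at least 1 source and 23 in all 3. Hoxb1, a hindbrain gene, Hoxd1 and Hoxd12 were not above background in any source. The gap between marrow and tail was widest in the HoxD cluster, where 8 of 12 probes were above background on PaS, 5 on OP and 1, that of Hoxd10, on TTF. In HoxB the 3 sources were close, with 10, 9 and 10 of 14 probes.

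**Figure D1:**
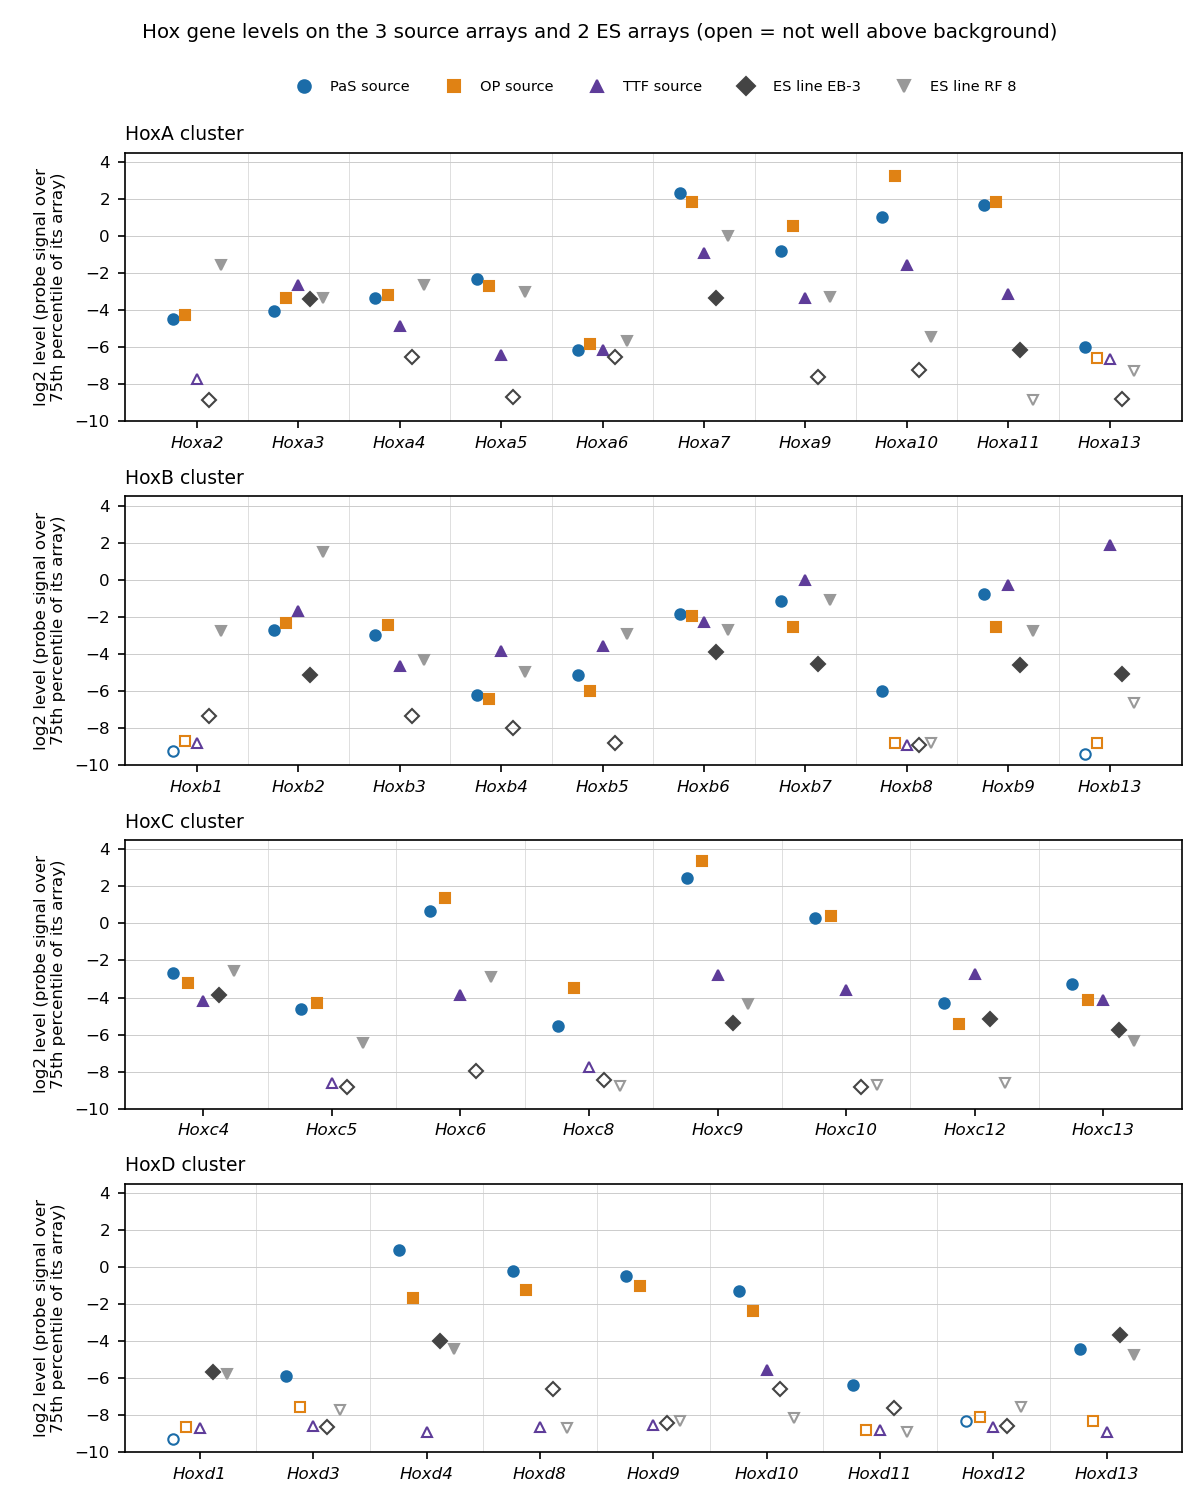
Level of each Hox gene reported (x axis, in cluster and paralog order) on the PaS, OP and TTF source arrays and the ES arrays EB-3 and RF 8, as log2 of signal over the 75th percentile of the array (y axis). Open symbols are not well above background, and TTF is open or low through HoxD and stands above the marrow sources at Hoxb13. Levels of different genes come from different probes and cannot be ranked against each other.

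The marrow sources stood above TTF at a block of neighbouring HoxD genes. Hoxd4, a gene of the neck vertebrae, was at 0.94 on PaS and -1.65 on OP but -8.90 on TTF, where it was not above background, a difference of at least 188-fold for PaS and at least 31.3-fold for OP. Hoxd8, which acts in the trunk and limb, was at -0.20, -1.24 and -8.61, at least 85.6-fold and at least 41.6-fold higher in marrow. Hoxd9, a gene of the limb and lower spine, was at -0.46, -1.01 and -8.52, at least 71.4-fold and at least 48.8-fold higher, and its other probe was at least 32.1-fold and at least 23.7-fold higher. Hoxd10, a gene of the lumbar region and hindlimb, was above background in all 3 sources at -1.28, -2.37 and -5.53, 19.1-fold higher in PaS and 8.94-fold higher in OP than in TTF. Beyond this block, Hoxd3 and Hoxd11 were above background on PaS only among the sources, at -5.89 and -6.36. Hoxd13, a gene of the digits, was also above it on PaS only, at -4.41, at least 4.61-fold higher than on TTF. The other probes of Hoxd3 and Hoxd13 were not above background on PaS (-7.25 and -7.23).

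In the genome build of the array design, mm7, the probes of these genes lay on chromosome 2 in the order Hoxd10 (74537939-74537998), Hoxd9 (74543335-74543394), Hoxd8 (74550680-74550739) and Hoxd4 (74572525-74572584), all on the plus strand. Because each of these 4 genes was at least 4-fold higher in both marrow sources than in the tail, the 250 bases upstream of their annotated starts are shown, from RefSeq on GRCm38.p6, plus strand, 5′ to 3′, with each CG in capitals:
Hoxd10, chr2:74691641-74691890: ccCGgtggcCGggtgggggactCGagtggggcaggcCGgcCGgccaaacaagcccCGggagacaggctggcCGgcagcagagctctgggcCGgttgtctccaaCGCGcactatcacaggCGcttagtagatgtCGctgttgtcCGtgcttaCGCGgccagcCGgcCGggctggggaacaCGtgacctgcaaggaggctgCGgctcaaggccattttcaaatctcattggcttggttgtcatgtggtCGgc
Hoxd9, chr2:74697513-74697762: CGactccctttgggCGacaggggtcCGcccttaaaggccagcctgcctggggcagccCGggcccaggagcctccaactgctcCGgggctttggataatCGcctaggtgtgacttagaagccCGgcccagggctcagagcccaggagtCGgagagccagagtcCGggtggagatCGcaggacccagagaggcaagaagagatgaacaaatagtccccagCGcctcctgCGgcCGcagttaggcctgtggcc
Hoxd8, chr2:74704365-74704614: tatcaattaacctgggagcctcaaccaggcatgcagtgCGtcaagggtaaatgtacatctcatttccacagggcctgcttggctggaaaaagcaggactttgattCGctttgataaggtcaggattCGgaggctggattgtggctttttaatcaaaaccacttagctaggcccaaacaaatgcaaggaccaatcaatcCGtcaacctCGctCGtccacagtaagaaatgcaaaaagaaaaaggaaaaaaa
Hoxd4, chr2:74721728-74721977: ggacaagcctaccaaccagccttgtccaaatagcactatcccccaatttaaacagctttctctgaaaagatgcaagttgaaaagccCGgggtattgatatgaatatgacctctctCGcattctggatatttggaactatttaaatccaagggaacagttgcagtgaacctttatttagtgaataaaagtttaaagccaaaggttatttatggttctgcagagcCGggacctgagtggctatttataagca
The CG dinucleotides, the letters that DNA methylation acts on in mammals, numbered 20 in Hoxd10, 13 in Hoxd9, 6 in Hoxd8 and 3 in Hoxd4, against a median of 6 over all 32851 promoter windows of that length. RefSeq gave such a window for 22 of the 38 genes, 24 windows in all, with a median of 12.5. Among 3 motifs searched on both strands, TATAAA (the sequence of a TATA box) occurred in 4 of the 24 Hox windows and in 12.4% of all windows, TTTATG (a Cdx motif) in 5 and in 10.8%, and TGATNNAT (a joint motif of Hox and Pbx proteins) in 4 and in 7.68%. The Hoxd4 window held the Cdx motif. It held TATAAA on the minus strand only, opposite to the gene, so this match is not read as a TATA box. None of the 3 motifs occurred in the Hoxd8, Hoxd9 and Hoxd10 windows.

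Hoxc5 to Hoxc10, and Hoxa5 to Hoxa11 other than Hoxa6, followed the same direction. Hoxc9, a gene of the thoracic level, was at 2.47 on PaS, 3.35 on OP and -2.77 on TTF, 37.8-fold and 69.3-fold higher in marrow. Hoxc6, a gene of the upper chest level, was at 0.69, 1.39 and -3.88, 23.7-fold and 38.7-fold higher. Hoxc10, a gene of the lumbosacral level and hindlimb, was at 0.29, 0.41 and -3.60, 14.8-fold and 16.1-fold higher, and its other probe gave 11.7-fold and 14.7-fold. All 3 of these were well above background on all 3 source arrays, so their differences are not bounds. Hoxc5 was above background in marrow only, at -4.59 and -4.30. Hoxc8 was at -5.51 on PaS and -3.51 on OP and not above background on TTF.

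In HoxA, Hoxa11, which patterns the forearm and shank, was at 1.65 on PaS and 1.82 on OP against -3.14 on TTF, 27.6-fold and 31.1-fold higher. Hoxa10, a gene of the lumbar region, was at 1.04, 3.22 and -1.58, 6.13-fold and 27.8-fold higher in marrow, and 4.53-fold higher in OP than in PaS. Hoxa9, also known for its role in blood progenitors, was at -0.82, 0.55 and -3.35. Hoxa7 was at 2.33, 1.82 and -0.91, and Hoxa5, a gene of the lung and the neck-to-chest boundary, at -2.34, -2.71 and -6.43. Hoxa2, a gene of the branchial arches, was at -4.48 and -4.25 in marrow and not above background on TTF. Hoxa3, Hoxa4 and Hoxa6 were below the 4-fold limit in every pair of sources, at -4.03, -3.37 and -2.63, at -3.35, -3.17 and -4.87, and at -6.14, -5.83 and -6.17. The other Hoxa3 probe ran the opposite way, at -5.74 on PaS and -5.56 on OP and not above background on TTF. By it Hoxa3 was at least 1.83-fold and at least 2.09-fold higher in marrow. Hoxa13, the limb-tip gene of this cluster, passed background on PaS alone, at -6.00.

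HoxB genes past the 4-fold limit, other than Hoxb3, ran the other way. Hoxb13, the most 5′ gene of its cluster and known from the tail end of the body and the prostate, was at 1.87 on TTF and not above background on PaS (-9.42) or OP (-8.80), at least 524-fold and at least 326-fold higher in TTF. Its probe read chr11:96304167-96304226 of mm7 on the plus strand, and the first 30 of its 60 bases, shown because this difference rests on a single probe, are:
Hoxb13 probe: agttgcgggagttggagcgggagtatgcag
Hoxb4, known to expand blood stem cells, was at -3.85 on TTF against -6.21 and -6.44, 5.13-fold and 6.02-fold higher. Hoxb5 stood at -5.16, -6.00 and -3.56, Hoxb7 at -1.13, -2.54 and 0.00, and Hoxb9, a gene of the rib level, at -0.75, -2.53 and -0.30, each at least 4-fold higher on TTF than on OP but not than on PaS by these probes. The other Hoxb9 probe was only 3.09-fold higher on TTF than on OP, and was 1.47-fold higher on PaS than on TTF. Hoxc12 behaved like these, at -4.32, -5.44 and -2.74. The hindbrain gene Hoxb2, at -2.70, -2.33 and -1.71, and the trunk gene Hoxb6, at -1.88, -1.99 and -2.27, were within 2-fold in every pair of sources by these probes, while the other Hoxb6 probe was 3.56-fold higher on TTF than on OP. Hoxb3, another hindbrain gene, was instead 3.21-fold and 4.77-fold higher in PaS and OP than in TTF. Hoxb8 passed background on PaS alone, at -6.01. Hoxc4, at -2.68, -3.20 and -4.20, and Hoxc13, a gene of hair and nail formation, at -3.29, -4.16 and -4.13, were within 3-fold in every pair of sources.

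Counted over probes, 17 of 49 Hox probes were at least 4-fold higher on PaS than on TTF and 2 at least 4-fold lower, where 4.83% and 6.56% of all gene probes were. For OP against TTF, 18 were higher and 6 lower, where 5.53% and 5.67% of all gene probes were. Between PaS and OP, 3 were higher on PaS (Hoxb9 by its other probe, Hoxd4 and Hoxd13) and 2 lower (Hoxa10 and Hoxc8), where 2.92% and 3.72% of all gene probes were. The limit applied after a dim signal was raised to the lowest signal well above background on its array. Normexp background correction, which fits a background to each array, left 12 probes for PaS against TTF and 12 for OP against TTF, with 11 and 10 of them higher in marrow, where 2.4% and 2.71% of all gene probes were higher in marrow and 3.53% and 3.29% lower.

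**Figure D2:**
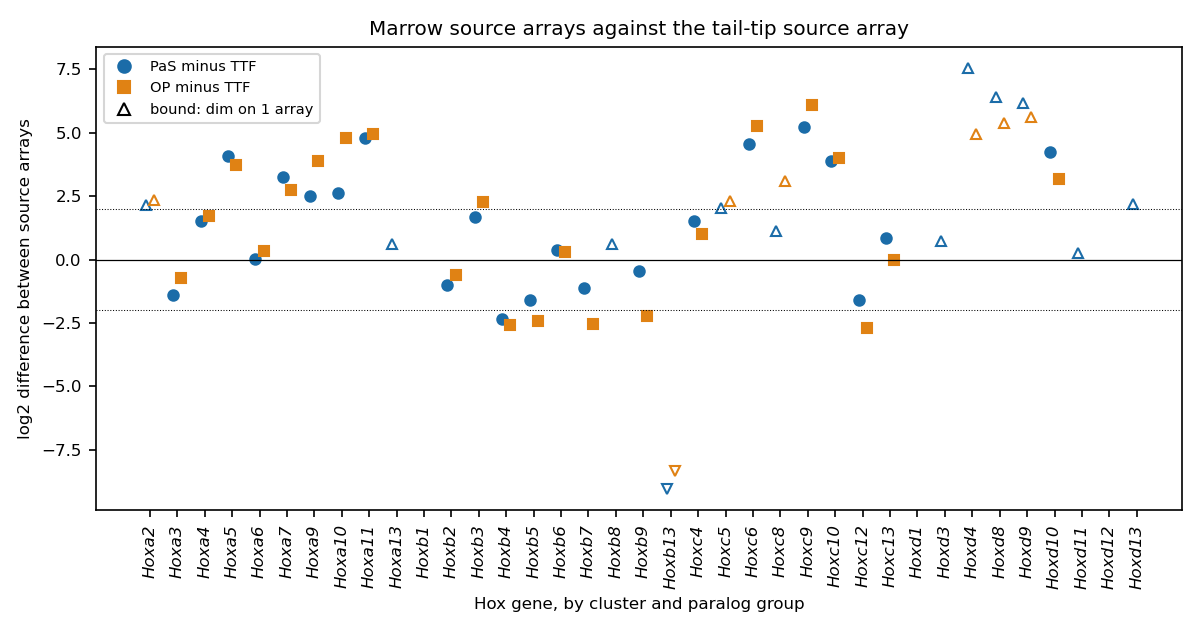
Log2 difference of PaS (circles) and OP (squares) from TTF for each Hox gene reported, by cluster; positive values are higher in marrow. Open triangles are bounds where 1 of the arrays was not well above background, genes not above background on both arrays have no symbol, and dotted lines mark 4-fold. HoxD genes d4 to d10 lie above the upper line and Hoxb13 lies near the lower end, at -9.03 and -8.35.

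Against EB-3, on the same slide, the sources were high in Hox genes. PaS had 25 probes at least 4-fold higher and 1, that of Hoxb13, lower, where 10% and 12.3% of all gene probes were. OP had 23 higher and 1 lower, that of Hoxd13, against 11.3% and 11.5% of all gene probes. TTF had 16 higher and 2 lower, those of Hoxd4 and Hoxd13, against 11% and 11.5% of all gene probes. The ES lines themselves differed: EB-3 had 18 Hox probes above background and RF 8 had 31, and 13 genes were above background in both. Hoxb2 was at -5.16 on EB-3 and 1.51 on RF 8, Hoxa2 at -8.86 and -1.59, and Hoxb1 at -7.33 and -2.75, where EB-3 was not above background for Hoxa2 and Hoxb1. The 14 fibroblast genes read alongside had a summed signal of 10.52 on EB-3 and 166 on RF 8, with the small proteoglycan gene Dcn at -6.83 and 1.93, and their part in the RF 8 Hox levels was not tested.

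The clones had between 20 (4F-OP-iPS #2) and 37 (3F-OP-iPS #5) Hox probes above background, with a median of 31.5. Of the 38 genes, 15 were above background in all 30 clones, among them Hoxa2, Hoxa3, Hoxa5, Hoxa7, Hoxa9, Hoxb2, Hoxb4, Hoxb5, Hoxb6, Hoxb7, Hoxb9, Hoxc4, Hoxc6 and Hoxc9. Hoxb1, Hoxd3, Hoxd11 and Hoxd12 were above background in 0 clones. Of the 41 Hox probes above background on PaS, a PaS-iPS clone had between 23 and 32 (median 29.5, or 72.0%), where the median clone had 90.5% of all probes above background on PaS. An OP-iPS clone had 20 to 33 of the 35 OP probes (median 31, or 88.6%, against 90.9% of all) and a TTF-iPS clone 20 to 26 of the 27 TTF probes (median 24, or 88.9%, against 87.8% of all). EB-3 had 15 of the PaS probes, 14 of the OP probes and 14 of the TTF probes, and RF 8 had 27, 26 and 21.

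**Figure D3:**
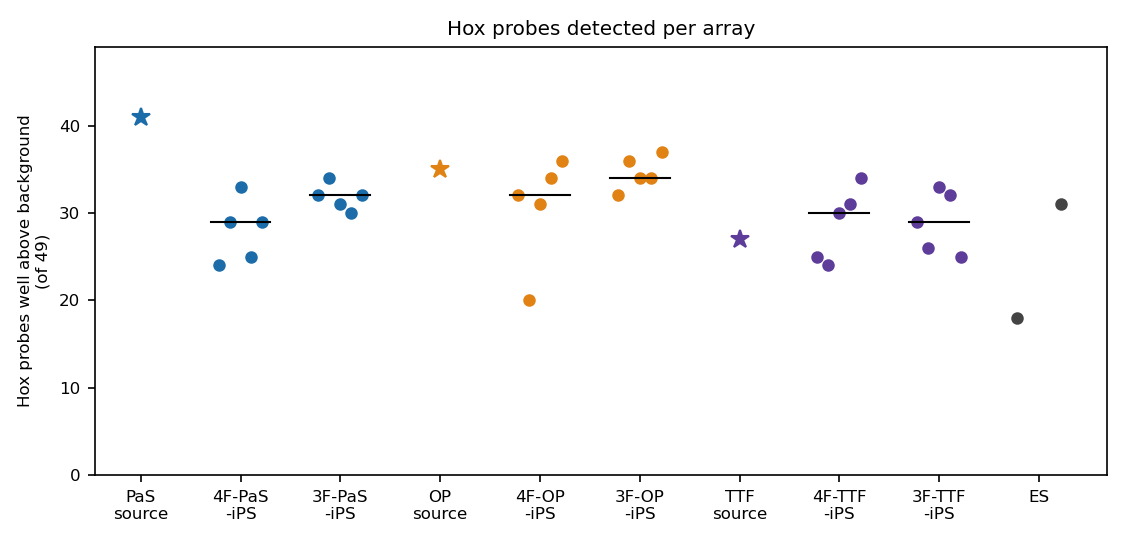
Number of the 49 Hox probes well above background (y axis) on each array, by group (x axis); stars are single source arrays, circles single clones or ES lines and bars the group medians of 5 clones. PaS stands highest at 41, the clones lie between 20 and 37, and EB-3 is lowest at 18.

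Of the 41 PaS probes, 7 were above background in 0 of the 10 PaS-iPS clones: those of Hoxc8, Hoxc12, Hoxd3, Hoxd10 and Hoxd11 and the other probe of Hoxc10 and of Hoxa13. Of all probes above background on PaS, 3.9% were above it in 0 of these clones. Every Hox probe above background on OP or on TTF was also above it in at least 1 of the 10 clones of that source, where 3.33% and 4.91% of all probes above background on those sources were above it in 0. In the mean over its clones, 15 of the 41 PaS probes were at least 4-fold below the source and 1 at least 4-fold above, where 8.37% and 8.06% of all probes above background on PaS were. For OP, 8 of 35 were below and 2 above, where 10.3% and 7.27% of all were. For TTF, 2 of 27 were below (Hoxb13 and Hoxc12) and 4 above, where 10.8% and 7.72% of all were.

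Hoxd4, Hoxd8, Hoxd9 and Hoxd10 lay more than 4-fold below PaS in every PaS-iPS clone. Hoxd8, at -0.20 on PaS, was between -6.18 and -3.74 in the 10 PaS-iPS clones with a median of -5.12, and 6 of them were above background. Hoxd9, at -0.46 on PaS, was between -5.35 and -3.53 with a median of -4.70. Hoxd4, at 0.94 on PaS, was between -4.37 and -2.02 with a median of -3.57. For these genes and for Hoxd10, Hoxa10, Hoxa11, Hoxc6, Hoxc9, Hoxc10 and Hoxc12, 0 of 10 PaS-iPS clones came within 4-fold of PaS. Hoxb6 and Hoxc4 stayed within 4-fold of PaS in 10 of 10 clones. So did Hoxa3 by 1 probe, while by its other probe, at -5.74 on PaS, 3F-PaS-iPS #1 and #2 were far above PaS at -1.47 and -3.06, and 4F-PaS-iPS #1 and #4 were not above background.

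In OP-iPS clones the same genes spread widely from clone to clone. Hoxd8, at -1.24 on OP, was at -2.78, -7.48, -1.48, -4.84 and -0.56 in 4F-OP-iPS #1 to #5, and at -2.16, -3.08, -1.68, -3.29 and -3.24 in 3F-OP-iPS #1 to #5. Hoxd9, at -1.01 on OP, was at -2.45, -7.42, -0.79, -4.95 and -0.50 in the 4F clones and at -2.22, -3.13, -0.66, -3.44 and -3.30 in the 3F clones. Hoxd4, at -1.65 on OP, was at -1.03, -7.77, 0.24, -2.34 and 0.23, and at -0.70, -2.71, -0.03, -3.05 and -2.52. Clones 4F-OP-iPS #3 and #5 and 3F-OP-iPS #3 were the highest for Hoxd8 and Hoxd9 and lay at or near the OP level, and 4F-OP-iPS #2 was below background for all 3 genes.

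Hoxd10 was within 4-fold of OP in 2 of 10 clones, 4F-OP-iPS #5 at -3.64 and 3F-OP-iPS #3 at -2.22. Hoxa9 was also at or near the OP level in these clones: at 0.55 on OP, it was at 0.86 in 4F-OP-iPS #3, 0.83 in 4F-OP-iPS #5 and 0.32 in 3F-OP-iPS #3, and highest in 3F-OP-iPS #1 at 1.33. Hoxa10 and Hoxa11 came within 4-fold of OP in 0 of 10 clones, and Hoxa11, at 1.82 on OP, was at -6.99 and not above background in 4F-OP-iPS #3. Clone 4F-OP-iPS #3 had a pluripotency sum of 5.15, while 4F-OP-iPS #5 and 3F-OP-iPS #3 lay above the median of the clones, and the fibroblast sums of the 3 clones were 238, 159 and 106 against 1541 on OP. The 5 mesenchymal genes tied to the PaS sort (Pdgfra, Ly6a, Thy1, Eng and Nt5e) summed to 44.5, 35.9 and 40.0 in the 3 clones, against 42.7 on OP, and their part in the Hox levels was not tested.

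In TTF-iPS clones the tail gene lay below its source, and several marrow genes lay above it. Hoxb13, at 1.87 on TTF, was between -4.13 and -1.53 in the 10 TTF-iPS clones (median -2.53), so that 0 of 10 came within 4-fold of TTF. It was above background as well in 10 of 10 PaS-iPS clones, between -4.48 and -2.90, and in 9 of 10 OP-iPS clones, between -3.36 and -1.35 in those 9, although both marrow sources were at background. Hoxc9, at -2.77 on TTF, was between -1.66 and 0.72 in TTF-iPS clones and thus above TTF in 10 of 10. Hoxd4, not above background on TTF, was above it in 9 of 10 TTF-iPS clones, between -3.89 and -2.30 in those 9, and Hoxd9 in 6 of 10.

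**Figure D4:**
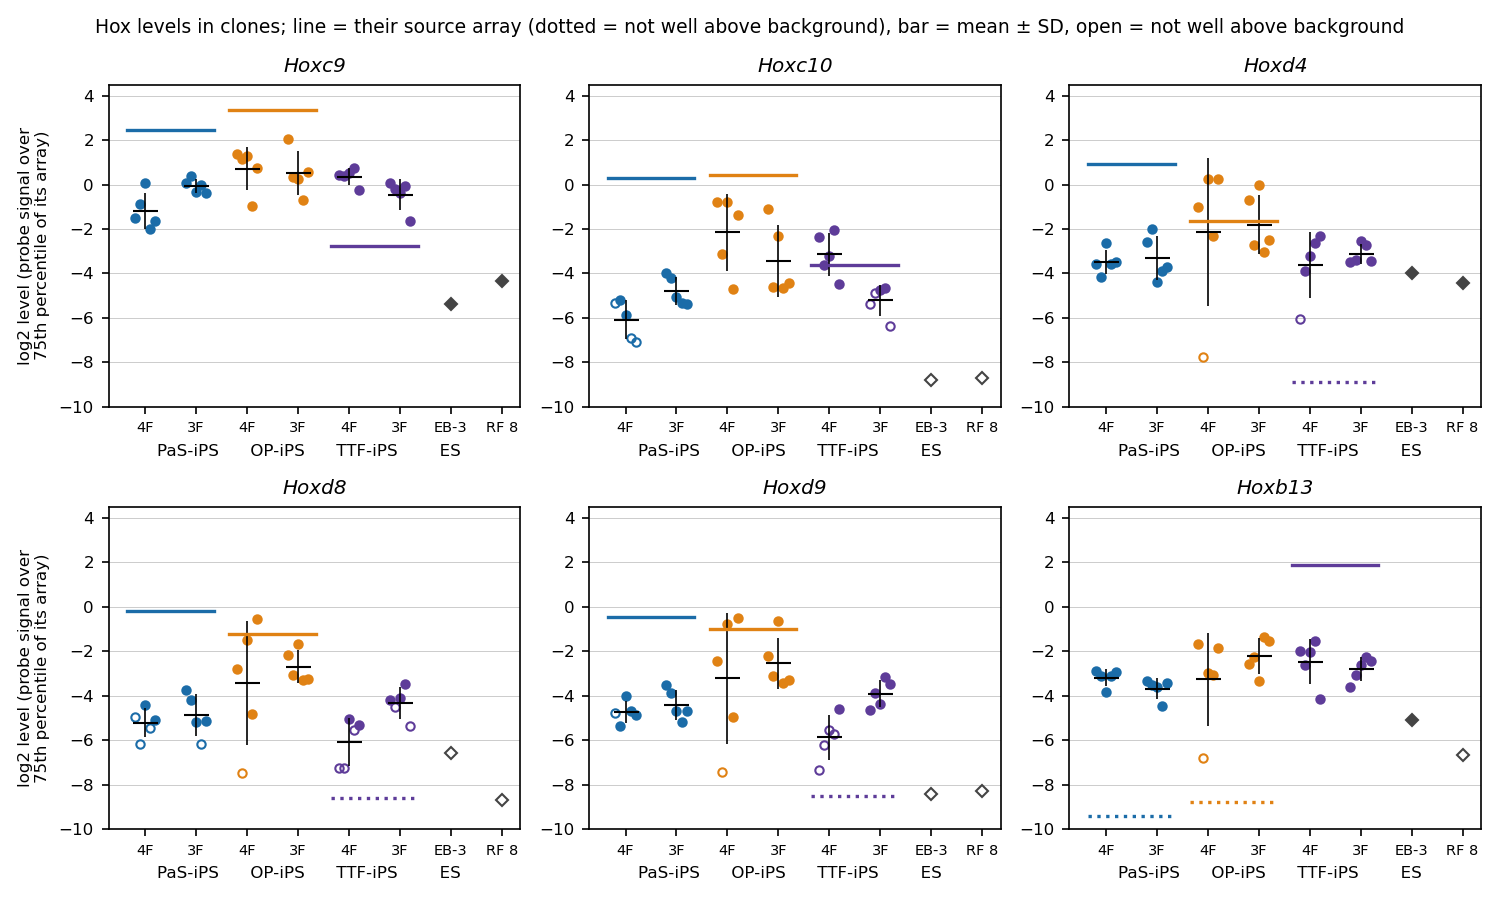
Levels of 6 Hox genes in the 5 clones of each source and factor set (points, with mean ± SD), on the source array of those clones (horizontal line) and on the ES arrays (diamonds); y axis as log2 of signal over the 75th percentile, open symbols and dotted lines not well above background. Some OP-iPS clones reach their source line for Hoxd4, Hoxd8 and Hoxd9, where PaS-iPS clones lie below theirs, and Hoxb13 lies between -4.48 and -1.35 in clones of all sources apart from 4F-OP-iPS #2.

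The clones were then compared by source, to ask whether any of the code was kept. Of 32 Hox probes (27 genes) that passed the filter on dim probes, 2 were lower in PaS-iPS than in OP-iPS clones and 0 higher, where 1.61% of the 27633 probes tested were called in either direction (limma, Benjamini-Hochberg adjusted p below 0.05 and at least 2-fold). Hoxc10 was at -5.43 ± 0.99 in PaS-iPS and -2.79 ± 1.71 in OP-iPS clones (SD, n = 10 each), a log2 difference of -2.64 (SE 0.49, limma adjusted p = 0.00645). Its values ran from -7.09 to -3.99 in PaS-iPS and from -4.72 to -0.77 in OP-iPS clones, so the groups overlapped, and 3 of the PaS-iPS values (4F-PaS-iPS #1, #4 and #5) were not above background, so that the size of the difference rests partly on dim signals. Hoxc9 was at -0.64 ± 0.83 and 0.62 ± 0.93, a difference of -1.25 (SE 0.32, adjusted p = 0.0297), and ran from -2.02 to 0.37 and from -0.96 to 2.06. On PaS and OP these genes had differed by 1.09-fold and 1.83-fold. The summed signal of the 5 mesenchymal genes ran from 13.7 to 21.0 in PaS-iPS and from 18.4 to 44.5 in OP-iPS clones, with 0 of the 5 called. Of the other marker lists, the pluripotency gene Zfp42 was higher in PaS-iPS clones by 1.81 (SE 0.51, adjusted p = 0.0442) and the osteoblast gene Bglap1 by 1.13 (SE 0.28, adjusted p = 0.0240). The part of these in the Hox differences was not tested.

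Within the 3 slides that held both kinds of clones, the PaS-iPS minus OP-iPS difference of Hoxc10 was -4.52, -2.91 and -2.49, and that of Hoxc9 was -2.06, -1.26 and -1.41. With slide as a fixed block, Hoxc10 kept its call (adjusted p = 0.0375) and Hoxc9 did not (-1.56, adjusted p = 0.0578). After normexp background correction Hoxc10 lost its call, at -0.80 (SE 0.31, adjusted p = 0.175). Without 4F-TTF-iPS #1 and 4F-OP-iPS #1 and #3, the clones in which Sox2 and Nanog were not above background, neither gene was called (Hoxc10 -2.18, adjusted p = 0.0689; Hoxc9 -1.05, adjusted p = 0.200), and 0.0543% of all probes were. Without 4F-OP-iPS #2 alone, 12 Hox probes were lower in PaS-iPS clones: Hoxa7, Hoxa9, Hoxa10, Hoxb3, Hoxb13, Hoxc6, Hoxc9, Hoxc10, Hoxd4, Hoxd8 and both probes of Hoxd9. Of all probes tested, 2.78% were lower and 4.6% called in either direction in that fit. Among them Hoxd4 differed by -2.13 (SE 0.46, adjusted p = 0.00409), and the PaS-iPS and OP-iPS clones in that fit were all above background for it. Hoxd8 passed the filter on dim probes through the 3F-OP-iPS clones alone, a group in which it was high, and 4 of 10 PaS-iPS values were not above background, so nothing is read from its call. Hoxc9 lost its call without any of 4F-PaS-iPS #1, #4 or #5, 3F-PaS-iPS #3 or #5, 4F-OP-iPS #1 or #3 or 3F-OP-iPS #1 (adjusted p from 0.0508 to 0.0715), and 5 probes were called without 4F-OP-iPS #4 (3.83% of all) and 3 without 3F-PaS-iPS #1 (1.77% of all). Without 4F-OP-iPS #1, #2 and #3 and 4F-TTF-iPS #1, 5 probes were called, those of Hoxc10, Hoxd4, Hoxd8 and both of Hoxd9 (1.24% of all probes tested were called). The first letters of the probes of Hoxc9, Hoxc10 and Hoxd8 are given because the calls of Hoxc9 and Hoxc10 and the wide spread of Hoxd8 among OP-iPS clones rest on them:
Hoxc9 probe, chr15:102970460-102970519 (mm7, plus strand): tgcaaactcttgcgatgtgggagggttaag
Hoxc10 probe, chr15:102957582-102957641 (mm7, plus strand): ggaaagaaagggggataatcaaacagagag
Hoxd8 probe, chr2:74550680-74550739 (mm7, plus strand): tgcgctttgaaagggatttctgtgttttta
Each line holds the first 30 of the probe's 60 bases. These were compared with no other transcript here.

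Between PaS-iPS and TTF-iPS clones 0 Hox probes were called by limma, where 0.496% of all probes tested were, and 6 of 32 had an unadjusted p below 0.05, where 16.6% of all did. Between OP-iPS and TTF-iPS clones 0 were called, where 0.0217% of all were, and 7 of 32 had an unadjusted p below 0.05, where 10.2% of all did. Without 4F-OP-iPS #2, Hoxd4 (2.11, SE 0.46, adjusted p = 0.0150), both probes of Hoxd9 (2.53 and 2.33, adjusted p = 0.00667 and 0.00790) and Hoxd8 were called higher in OP-iPS clones, where 1.05% of all probes were called in either direction. In TTF-iPS clones 1 of 10 values of Hoxd4, 4 of 10 of each Hoxd9 probe and 5 of 10 of Hoxd8 were not above background, so that these differences rest partly on dim signals, and Hoxd8 again passed the filter through 3F-OP-iPS alone. Without 4F-TTF-iPS #1 and 4F-OP-iPS #1 and #3 as well, 0 were called, and 0.0579% of all.

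The direction of the source difference was set beside that of the clones, as a description. Of the 18 probes at least 4-fold higher on OP than on TTF, 16 had a higher mean in OP-iPS than in TTF-iPS clones (88.9%), against 41.4% of the 2278 gene probes with the same source difference, and the median clone difference was 0.66 against a median source difference of 3.95. The exceptions were Hoxa2 and Hoxa11. Among the 16, Hoxc8 differed by 0.01 and was not above background in 9 OP-iPS and 10 TTF-iPS clones, so its direction is not read as kept. The other Hoxc10 probe was not above background in 4 OP-iPS and 8 TTF-iPS clones. Hoxc5 and Hoxd10 were above background in only 8 and 6 clones, counted over all sources. The directions of these probes therefore rest partly on dim signals. Of the 17 probes higher on PaS than on TTF, 5 had a higher mean in PaS-iPS clones (29.4%), against 33.6% of all such probes, with a median clone difference of -0.35. These 5 were the probes of Hoxa11, Hoxd8, Hoxd13 and both of Hoxd9. That of Hoxd13 was not above background in 7 TTF-iPS clones and that of Hoxd8 in 5, so these directions too rest partly on dim signals. In the other direction, 6 of the 6 probes higher on TTF than on OP had a higher mean in TTF-iPS clones (65.2% of all such probes), as did 2 of the 2 higher on TTF than on PaS (58.7% of all). Among the 6, Hoxb9 and Hoxb4 differed by only -0.05 and -0.08 (OP-iPS minus TTF-iPS). Hoxc12 was above background only in 4F-OP-iPS #1 and 4F-TTF-iPS #4 of these clones, so its direction compares dim signals. That of Hoxb13 turned without 4F-OP-iPS #2, as given below. Between PaS and OP, 2 of the 3 probes higher on PaS (52.5% of all) and 2 of the 2 higher on OP (44.5% of all) had the same direction in the clone means. Hoxc8, 1 of the 2 higher on OP, was not above background in 10 of 10 PaS-iPS and 9 of 10 OP-iPS clones. Its direction therefore compares dim signals and is not read as kept. Hoxb13 was higher in TTF-iPS than in PaS-iPS clones by 0.80 and than in OP-iPS clones by 0.11, where it was at least 524-fold and at least 326-fold higher on the source array. Neither clone difference was called (limma adjusted p = 0.381 and 0.964). The OP-iPS mean included 4F-OP-iPS #2 at -6.81, not above background. Without that clone, Hoxb13 differed by -1.13 for PaS-iPS minus OP-iPS, against -0.80 for PaS-iPS minus TTF-iPS. The OP-iPS mean then lay above the TTF-iPS mean.

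Against ES cells, 21 Hox probes of 18 genes were higher in the iPS clones and 0 lower, where 17.2% of all probes tested were higher and 19% lower. Hoxc9 had a log2 difference of 4.82 (SE 0.52), from -2.02 to 2.06 over the 30 clones against -5.35 on EB-3 and -4.33 on RF 8, so that no clone overlapped the ES arrays. Hoxc10 was not above background on either ES array and was at least 5.44-fold higher in clones, and Hoxd9 was likewise at least 5.50-fold higher. Hoxd8 is counted among the 21 probes. It passed the filter on dim probes through the 3F-OP-iPS clones alone, a group in which it was high, so nothing is read from its call. Hoxb4 was higher by 3.63 (SE 0.52), with -4.96 on RF 8 and a signal not above background on EB-3. Hoxb13 was higher by 2.94 (SE 0.74, adjusted p = 0.00162), at -5.11 on EB-3 and not above background on RF 8. The other genes called were Hoxa2, Hoxa4 by its other probe, Hoxa5, Hoxa7, Hoxa9, Hoxa10, Hoxa11, Hoxb3, Hoxb6, Hoxb9, Hoxc6 and Hoxc13, with differences from 1.06 (Hoxc13) to 3.80 (Hoxa11, not above background on RF 8). The other Hoxa4 probe, like that of Hoxd8, passed the filter on dim probes through the 3F-OP-iPS clones alone. It was not above background in 6 PaS-iPS and 6 TTF-iPS clones, so nothing is read from its call. With 1 probe per gene, 17 Hox genes were called. Where 1 ES array was not above background, as for Hoxb4, Hoxb13 and Hoxa11, the size of the difference rests partly on a dim signal.

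This comparison turned on the ES lines and on the background step. With RF 8 as the only ES array 10 Hox probes were higher in clones, where 12.5% of all probes tested were, and with EB-3 as the only one 23, where 17.9% were. Against RF 8 alone, the clones differed by -0.92 at Hoxa2 and by -0.04 at Hoxa5. After normexp background correction 2 probes were higher, those of Hoxa7 and Hoxc9, where 8.63% of all were. The 14 fibroblast genes, which SNL feeder cells would also carry, had a summed signal of 76.8 to 424 in the clones, 10.52 on EB-3 and 166 on RF 8, and 10 of the 14 were called higher in clones. All 5 endoderm genes were called higher as well, with sums of 6.14 to 112 in the clones against 0.323 and 0.895 on the ES arrays. The part of either in the Hox levels was not tested.

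Few Hox probes were called between 3F and 4F clones. Between 3F and 4F clones of PaS 0 Hox probes were called by limma, where 0.0181% of all probes tested were, and 2 of 32 had an unadjusted p below 0.05, where 17.3% of all did. In OP-iPS clones 4 Hox probes were higher with 3F, among them both of Hoxb9 and that of Hoxc13, where 3.93% of all were. Hoxb9 differed by 1.97 (SE 0.43, limma adjusted p = 0.00730), with -2.64, -0.22, -1.35, -0.78 and -0.50 in 3F-OP-iPS #1 to #5 and -3.91, -3.22, -3.69, -2.15 and -2.39 in 4F-OP-iPS #1 to #5. Clone 3F-OP-iPS #1 lay within the range of the 4F clones, and the other 3F clones lay above it. The other Hoxb9 probe gave 2.37 (SE 0.49). Hoxc13 was at -4.49 ± 0.67 with 3F and -5.59 ± 0.39 with 4F (SD, n = 5 each; limma adjusted p = 0.00991), with 4F-OP-iPS #1 and #3 not above background. In TTF-iPS clones Hoxc13 alone was higher with 3F, at -4.58 ± 0.26 against -5.59 ± 0.31, by 1.01 (SE 0.25, adjusted p = 0.0121), where 3.97% of all probes were higher. Clones 4F-TTF-iPS #1 and #2 were not above background for it, so that in both sources the difference rests partly on dim signals. No slide held both 3F and 4F clones of OP or of TTF, and without 4F-TTF-iPS #1 and 4F-OP-iPS #1 and #3 the count was 0 in OP-iPS (Hoxb9 1.49, adjusted p = 0.129) and 0 in TTF-iPS clones (Hoxc13 0.99, under the 2-fold minimum), where 0.608% and 3.59% of all probes were called. Hoxc13 in TTF-iPS clones also missed that minimum without 4F-TTF-iPS #2 (0.89) or 3F-TTF-iPS #2, #4 or #5 (0.95 to 0.97). In OP-iPS clones Hoxc13 lost its call without 3F-OP-iPS #2 or #5 (1.00 and 0.99). Hoxc13 lost its call in both sources after normexp background correction (OP-iPS 0.36, adjusted p = 0.643; TTF-iPS 0.28, adjusted p = 0.759) and after quantile normalization (OP-iPS 0.67, adjusted p = 0.152; TTF-iPS 0.70, adjusted p = 0.115). With slide as a random block, 0 Hox probes were called in either source (Hoxb9 1.81, adjusted p = 0.0971; Hoxc13 in TTF-iPS 0.81, adjusted p = 0.404), where 0.608% and 0.0253% of all were. The 3F minus 4F difference of a Hox probe did not differ between any pair of sources at an adjusted p below 0.05 (0 called). At an unadjusted p below 0.05 there were 7 of 32 for OP against PaS, 7 for TTF against PaS and 2 for OP against TTF, where 18.9%, 19.4% and 3.72% of all probes were.

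**Figure D5:**
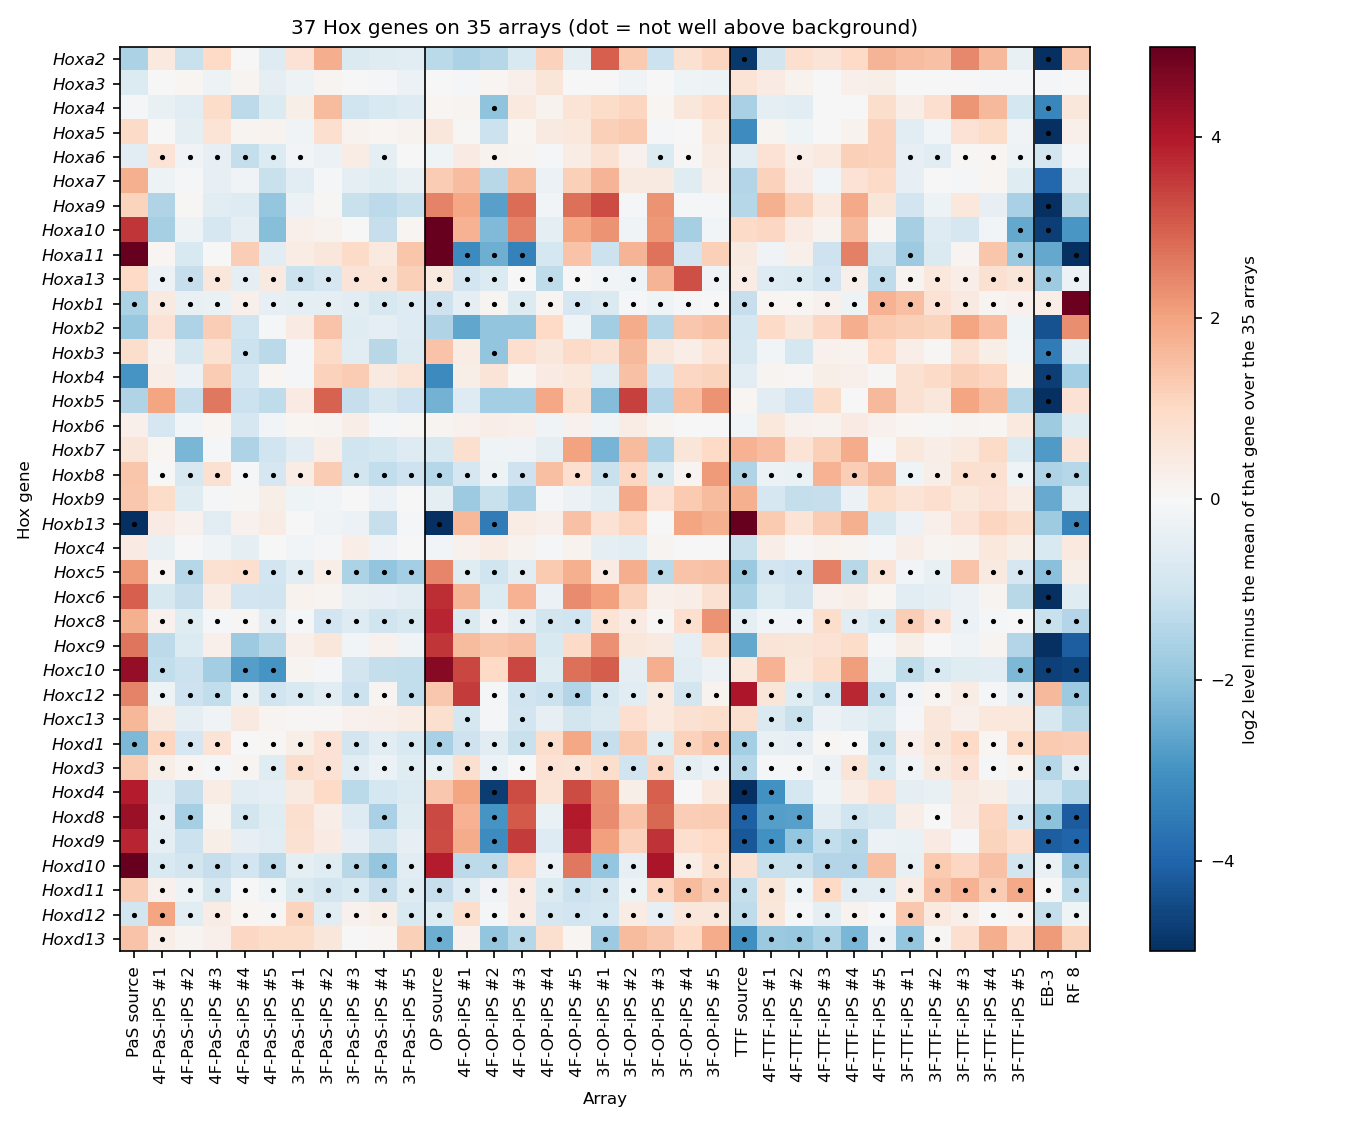
Level of each Hox gene reported (rows) on each of the 35 arrays (columns), as log2 minus that gene's mean over the arrays, with colours ending at -5 and 5; dots mark arrays where the gene was not well above background. The PaS and OP source columns are red from Hoxa7 to Hoxa11, at Hoxc6 to Hoxc10 and at Hoxd8 to Hoxd10, and the red of 3F-OP-iPS #3 and of clones #3 and #5 of 4F-OP-iPS covers Hoxd4 to Hoxd9.

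Partner and regulator genes of the Hox system were read from 3 lists. Of 7 Hox cofactors on the array, which bind DNA together with Hox proteins, 0 were called between clones of different sources, where 0.0217% to 1.61% of all probes tested were. Meis1 was higher in clones than in ES cells by 2.63 (SE 0.61, adjusted p = 0.000727), but it was at -6.39 on EB-3 and -1.31 on RF 8, and without EB-3 the difference was 0.09 (adjusted p = 0.899). With 3F, Pbx4 and Pknox2 were higher in OP-iPS clones by 1.12 and 1.62 and Pknox2 in TTF-iPS clones by 1.59, where 3.93% and 3.97% of all probes were. Of 11 upstream regulators, 9 were tested, 0 were called between sources of clones, and 4 were higher and 1 lower in clones than in ES cells, where 17.2% and 19% of all probes tested were. Cdx2, a direct activator of Hox genes, was higher by 2.79 (SE 0.90; not called against either ES line alone, adjusted p = 0.0743 and 0.0951), Cyp26a1, which degrades retinoic acid, by 3.76 (SE 0.68), Rarb, a retinoic acid receptor, by 1.89 (SE 0.49), and Gdf11, a signal of the trunk-to-tail transition, by 1.03 (SE 0.36), which was 0.13 (adjusted p = 0.842) without EB-3. Rara, another such receptor, dropped by 1.14 (SE 0.19), and by 0.92, under the 2-fold minimum, without EB-3. With 3F, Cdx2 was also higher in OP-iPS clones, by 2.47 (SE 0.78, adjusted p = 0.0483). None of the 3F calls of Pbx4, Pknox2 and Cdx2 held after normexp background correction, or without 4F-TTF-iPS #1 and 4F-OP-iPS #1 and #3 (Pbx4 0.85, adjusted p = 0.0696; Pknox2 1.29 and 1.14, adjusted p = 0.171 and 0.113; Cdx2 0.93, adjusted p = 0.538). Of 10 chromatin regulators, 0 were called between sources, and 1 was higher and 4 lower in clones than in ES cells. Against ES cells, the Polycomb genes Ezh2, Eed and Cbx2 differed by -1.47, -1.73 and -1.34 and Wdr5, of the opposing Trithorax complexes, by -1.15, while the Polycomb gene Bmi1 was higher by 1.17. Without EB-3 the difference of Wdr5 was -0.17 (adjusted p = 0.677), and without RF 8 Bmi1 was not called (1.11, adjusted p = 0.0531). Normexp background correction ended the calls against ES cells of Cdx2 (1.41, adjusted p = 0.0531), Gdf11 (0.18, adjusted p = 0.724), Rara (-0.44, adjusted p = 0.296) and Bmi1 (0.75, under the 2-fold minimum). On the source arrays Cdx1, Cdx2 and Cdx4 were not above background.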

How the data were processed

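RNA of 30 iPS clones, 3 source cell preparations and 2 ES lines was hybridised, labelled with Cy3, to one-colour Agilent mouse oligonucleotide arrays (35 arrays). Per the file headers, Agilent Feature Extraction (10.5.1.1, 10.7.3.1 and 9.5.3.1) gave the background-corrected signal intensity of each spot, and the table of log2 values deposited by the authors holds the same arrays after scaling in GeneSpring GX. The number of arrays limits the precision. Here the log2 of the processed intensity minus each array's 75th percentile was used, control and outlier-flagged spots were left out and spots of a probe averaged. This left 1 Hox probe on 4F-OP-iPS #4 without a value.

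Groups came from the sample labels. The 30 clones and 2 ES arrays entered 1 limma fit (limma 3.58.1, R 4.3.3) of 7 groups, over the 27633 probes that at least 1 group had well above background on all of its arrays. The 3F and 4F groups of a source weighed equally. A call needed a Benjamini-Hochberg adjusted p below 0.05 and at least 2-fold. Source arrays have no replicates, and a probe was counted there at 4-fold. The fit was tested on simulated data. Named were genes above background in a source, and in clones those called, those at least 4-fold apart between sources or those above background in the most clones. 1 Hox gene is counted but its values are not reported here. The members and lists were chosen with earlier results of these data known. Replicate numbers shared by groups did not pair the clones: of 75 same-numbered pairs, 16 had a correlation of deviations over 0.1. Alternatives were normexp background correction (offset 50), quantile normalization, the authors' table, other percentiles, filters and limits, slide or replicate number as a block, and clones left out.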

Additional observations from a re-analysis of the deposited data

Results flagged for a closer look

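In 16 of 168 sets of 5 clones (27 genes, and the count of source probes above background, in 6 groups), 1 clone lay far from the others. By chance about 1 in 20 sets would hold such a clone, and 12 of the 16 lay at the low end. Clone 4F-OP-iPS #2 accounted for 5 of them. It was lowest for Hoxa4 at -5.27 (others from -3.10 to -2.57), Hoxa5 at -4.37 (others from -3.21 to -2.75), Hoxb3 at -5.84 (others from -3.49 to -2.91) and Hoxb13 at -6.81 (others from -3.08 to -1.66), of which only Hoxa5 was above background. It also held 20 of the OP source Hox probes above background, where the other clones of its set held 30 to 33. Its summed pluripotency signal was the lowest of the clones at 1.03 and its fibroblast sum the lowest at 76.8. Its endoderm sum was the highest of the clones at 112 (others of its set from 6.14 to 17.4), as were its sums of upstream regulators at 12.1 and of Hox cofactors at 14.5. The part of these signals in its Hox levels was not tested.

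Clone 4F-OP-iPS #4 was lowest for Hoxb6 at -2.29 and for Hoxc9 at -0.96. Clone 3F-TTF-iPS #5 was highest for Hoxb6 at -1.63 and lowest for Hoxc9 at -1.66. Clone 4F-PaS-iPS #3 was lowest for Hoxb13 at -3.84 and highest for Hoxc6 at -1.91, and 3F-PaS-iPS #4 was lowest for Hoxa10 at -3.69 and for Hoxb13 at -4.48. Clone 3F-PaS-iPS #3 was highest for Hoxc4 at -2.74. Clone 3F-OP-iPS #1 was lowest for Hoxc13 at -5.65. Clone 4F-TTF-iPS #5 was highest for Hoxd10 at -4.78, where the other clones of its set, from -7.76 to -7.38, were not above background.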

How the results depend on the processing

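For single Hox genes, 906 of 984 alternative values kept the direction and the side of the threshold, 75 kept the direction but lost the call, and 3 reversed. Reversed values were those of Hoxa2 and Hoxa5 for clones against ES cells without EB-3 (ranges when 1 array was left out from -0.92 to 6.35 and from -0.0408 to 5.62, the highest without RF 8), and of Hoxc13 (-0.23) for 3F against 4F TTF-iPS clones with slide as a fixed block. Normexp background correction kept 4 of 23 calls. It gave 12 Hox probes for PaS against TTF (19 as reported), 12 for OP against TTF (24), 2 for PaS against OP (5), 1 for PaS-iPS against OP-iPS clones (2), 2 for clones against ES cells (21), and 2 and 0 for 3F against 4F OP-iPS and TTF-iPS clones (4 and 1), where 5.93%, 6.01%, 2.93%, 0.59%, 18.7%, 0.97% and 1.74% of all probes were called. An 8-fold limit gave 15 for OP against TTF (5.74% of all) and 0 for PaS against OP (2.93%), and a 2-fold limit gave 11 for PaS against OP (19.2%). Quantile normalization gave 2 for 3F against 4F OP-iPS clones (3.92% of all). With no filter on dim probes, 1 probe, that of Hoxd11, was called between PaS-iPS and TTF-iPS clones (0.478% of all) and 2 between 3F and 4F TTF-iPS clones (4.55%). Slide as a fixed block gave 1 for PaS-iPS against OP-iPS (0.995% of all) and 0 for 3F against 4F TTF-iPS clones (0.0145%), and as a random block 0 for 3F against 4F in both OP-iPS and TTF-iPS clones. Without the 3 clones lacking Sox2 and Nanog, 0 were called between PaS-iPS and OP-iPS and 0 between 3F and 4F OP-iPS or TTF-iPS clones. Without 4F-OP-iPS #2 as well, a choice made after the data were seen, the first count was 5 and the others 0. Leaving out 1 array at a time gave 1 to 12 for PaS-iPS against OP-iPS, 0 to 4 for OP-iPS against TTF-iPS, 10 to 23 for clones against ES cells, 2 to 5 for 3F against 4F OP-iPS and 0 to 4 for 3F against 4F TTF-iPS clones, where 0.626% to 4.6%, 0.00362% to 1.05%, 29.1% to 37%, 1.65% to 8.21% and 3.04% to 6.98% of all probes were called. With the replicate number as a block, 3 probes were called between PaS-iPS and OP-iPS (1.69% of all) and 3 between 3F and 4F TTF-iPS clones (5.93%), but the numbers did not pair the clones (median correlation -0.00108). The cause of these changes was not tested. Single source arrays, 2 ES lines that differ from each other and separate scan sessions limit each comparison with sources or ES cells.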
